A study of Mus musculus with 9 samples.

Results

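Collagen genes were followed in mouse heart tissue bordering an infarct, the peri-infarct region. They were the rows of the value table whose gene symbol names a collagen chain (Col, a type number, the letter a and a chain number). There were 42 such rows for 42 genes, of 19505 genes in all. A list of 44 collagen genes sorted them into 11 fibrillar, 8 basement membrane and 23 minor collagens, and Col7a1 and Col12a1 of that list were not analysed here. The hearts came from female SCID mice, 80 to 100 days old, in which the left anterior descending coronary artery had been tied off. SCID mice lack functional T and B lymphocytes, so every group, saline included, shares that host as well as the infarct. The 3 groups were injected with saline, with iCM (cardiomyocytes differentiated from induced pluripotent stem cells and grown until they beat) or with iCM-Ex (exosomes precipitated from such cells). Hearts were taken 4 weeks after the infarct, and the infarct core and the remote zone were removed. Each group had 3 biological replicates, each on its own Clariom S array, so there were 9 arrays. From which species the stem cells came, and whether hearts were pooled, is not given in the sources used here.

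Collagens are the main structural proteins of the matrix between cells. Each is made of chains wound around one another in a rope-like helix of glycine-rich repeats, and a collagen type can need the products of several genes. Fibrillar types I and III form the fibres of scar and of the normal heart's interstitium, and are made chiefly by fibroblasts. Type V starts and limits their fibrils. Type IV forms the sheet of the basement membrane around cardiomyocytes and under capillary endothelium, and types XV and XVIII lie in or beside that sheet. Type VI forms beaded filaments around cells, type VIII is made by vessel walls and growing fibroblasts, and fibril-associated types such as XIV, XVI and XX have interrupted helices.

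The control regions of the chains that moved together on the arrays are shown first. Col4a1 and Col4a2, which encode the chains of the common type IV molecule, start from opposite strands. Their RefSeq promoter windows on GRCm38.p6, from 250 bases before to 50 after the annotated start, are chr8:11312777-11313076 (minus strand) and chr8:11312555-11312854 (plus strand). The windows share 78 bases, identical when read on one strand. Col1a2, a chain of type I, is shown for contrast at chr6:4505368-4505667 (plus strand). Capitals mark matches on either strand to the TATA box (TATAAA), the CCAAT box and the GC box (GGGCGG).
Col4a1: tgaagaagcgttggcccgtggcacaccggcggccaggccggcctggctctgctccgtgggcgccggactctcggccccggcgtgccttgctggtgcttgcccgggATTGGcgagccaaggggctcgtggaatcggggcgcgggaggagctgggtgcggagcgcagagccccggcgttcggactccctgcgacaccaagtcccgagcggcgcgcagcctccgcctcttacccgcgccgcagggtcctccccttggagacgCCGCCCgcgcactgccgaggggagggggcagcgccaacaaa
Col4a2: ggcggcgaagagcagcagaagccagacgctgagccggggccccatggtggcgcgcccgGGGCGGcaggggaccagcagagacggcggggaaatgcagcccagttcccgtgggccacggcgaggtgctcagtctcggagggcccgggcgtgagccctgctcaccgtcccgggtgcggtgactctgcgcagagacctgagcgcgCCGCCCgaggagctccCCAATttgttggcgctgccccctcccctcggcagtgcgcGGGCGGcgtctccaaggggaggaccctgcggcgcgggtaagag
Col1a2: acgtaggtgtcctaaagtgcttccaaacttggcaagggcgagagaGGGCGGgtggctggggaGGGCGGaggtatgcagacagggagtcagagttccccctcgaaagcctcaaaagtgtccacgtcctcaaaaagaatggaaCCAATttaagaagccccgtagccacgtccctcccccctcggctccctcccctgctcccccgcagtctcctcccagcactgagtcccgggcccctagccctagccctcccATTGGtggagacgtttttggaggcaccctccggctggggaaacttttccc
The Col4a2 window holds 3 GC boxes and 1 CCAAT box, the Col4a1 window 1 of each, and the Col1a2 window 2 of each. None of the 3 windows holds a TATA box. RefSeq windows were matched for 34 of the 42 genes, 37 windows in all. A GC box was in 59.5% of them against 35.7% of all 32851 windows. A CCAAT box was in 32.4% against 37.4%, and a TATA box in 13.5% against 13.6%. A match is a description of the sequence only.

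Values are the authors' log2 signals, so a difference of 1 is one doubling, and differences below are of group means with a standard error (SE) or 95% interval from 1 limma fit over the 9 arrays. A gene counts as changed where its p, adjusted by Benjamini-Hochberg over 19505 genes, is under 0.05. Heart muscle markers were present on every array. Their mean over 6 genes was highest on iCM replicate 3, at 17.87, and was 15.84 to 17.34 on the others. Myh6, Ryr2 and Myl2 were highest on iCM replicate 3, and Tnnt2, Actc1 and Tnni3 were not. The mean of 4 mesothelial markers was lowest on that array, at 5.26 against 6.17 to 8.68, though Wt1 was not. The mean of 6 cartilage markers was 5.25 to 6.51, with Matn1 and Matn3 at or below 4.37 on every array and Comp, which fibroblasts also make, at 7.80 to 12.87. Markers of other tissues stood out on 3 arrays. The mean of 5 lung markers reached 14.25 on the first iCM array, 6.51 on the second and 10.23 on the third iCM-Ex array, and was 4.35 to 5.13 on the other 6. Skeletal muscle and fat markers averaged 11.10 and 8.83 in iCM replicate 2, against at most 5.76 and 5.38 elsewhere. A fit without these 3 arrays, chosen after seeing the data, leaves iCM replicate 3 as the only iCM array. That lone array is the one with the highest heart muscle mean, and it is assumed to vary like the other groups. The part of its tissue make-up in the values of this fit was not tested. Values from this fit stand beside the printed iCM minus saline differences of the main chains that it moved by over 1.5 times or turned in sign, and beside some others. In a piece of tissue, fewer cells of a type and less RNA per cell cannot be told apart.

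Of the 42 collagens, 26 had means above the median negative control probe in all 3 groups, 6 in some groups and 10 in none. The 10 were Col2a1, Col5a3, Col24a1, Col6a4, Col9a1, Col10a1, Col17a1, Col19a1, Col22a1 and Col26a1, and the size of a change in them is uncertain. Among them are genes of cartilage types II, IX and X and of the skin type XVII.

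In iCM hearts 1 of the 42 collagens was past the threshold, Col20a1, which rose. That is read against 3.67% of all genes called in iCM minus saline. None of the 42 was past it in iCM-Ex minus saline (0.349% of all genes), in iCM-Ex minus iCM (1.07%) or in an F test over all 3 groups (3.32%). At an unadjusted p under 0.05 limma counted 6, 3 and 2 of the 42 in the 3 comparisons, against 20.5%, 15.2% and 14.5% of all genes. In the F test it counted 4 of 42, against 21.8%. The 95% intervals were wide. The median SE of a collagen difference was 0.41, against 0.36 over all genes.

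**Figure D1:**
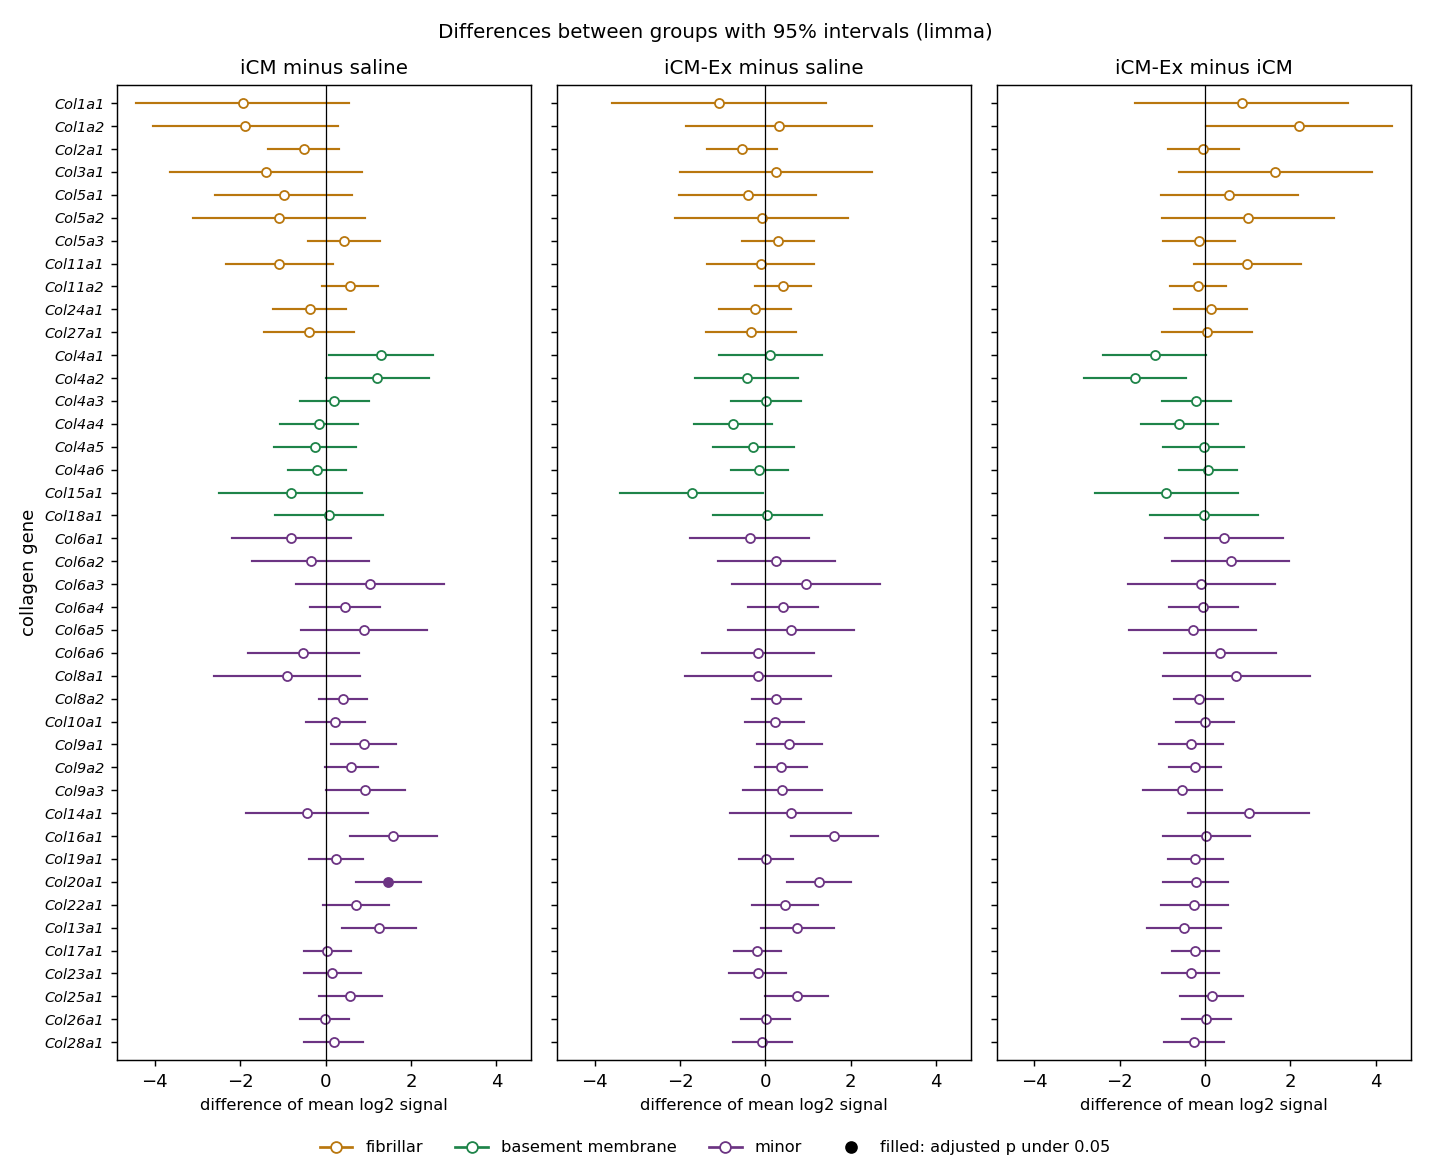
Differences of mean log2 signal for the 42 collagen genes in the 3 comparisons (x axes, log2), with 95% intervals from limma and colours for fibrillar, basement membrane and minor collagens. Col20a1 in iCM minus saline is the filled point, past an adjusted p of 0.05, and the intervals of the type I and III genes are the widest.

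Fibrillar collagens had lower means in iCM than in saline in 9 of 11 genes, with a median of −0.98 (log2), against 44.5% of all genes lower and a median of 0.08. None passed the test, and the median ranged from −1.35 without saline replicate 1 to −0.56 without saline replicate 2, −0.53 without iCM replicate 2 and −0.41 without iCM replicate 3. Col1a1, which encodes the chain present in duplicate in the type I molecule, was at 10.56, 14.39 and 12.63 on the saline arrays. It was at 12.18, 10.82 and 8.75 in iCM and at 13.12, 11.34 and 9.86 in iCM-Ex. The 3 groups overlap, and the arrays of one group differ by 3.26 to 3.83. The difference of iCM from saline was −1.94 ± 1.13 (SE; limma adjusted p = 0.362), with a 95% interval of −4.44 to 0.55. Leaving out saline replicate 1 gave −2.93, leaving out saline replicate 2 gave −1.01, and the fit without the 3 arrays with markers of other tissues gave −3.78.

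Its partner chain gene Col1a2 was at 12.05, 14.78 and 13.74 in saline, 13.09, 12.51 and 9.32 in iCM and 14.91, 13.49 and 13.11 in iCM-Ex. Its lowest array is iCM replicate 3, and every iCM-Ex array lies above every iCM array. The difference was −1.88 ± 0.98 for iCM minus saline (limma adjusted p = 0.309) and 2.20 ± 0.98 for iCM-Ex minus iCM (0.339, 95% interval 0.03 to 4.37). Both rest on iCM replicate 3, without which they were −0.72 and 1.04, and without the 3 arrays with markers of other tissues they were −4.20 and 4.89. Col1a2 was the only collagen whose iCM-Ex arrays all lay above its iCM arrays, 1 of 42 against 10.2% of all genes. Col1a1 differed by 0.86 there (interval −1.64 to 3.36), and by −0.06 without iCM replicate 3.

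Col3a1, the gene of type III collagen, gave 15.69, 18.51 and 17.52 in saline, 17.63, 16.36 and 13.52 in iCM and 18.52, 17.42 and 16.50 in iCM-Ex. Again iCM replicate 3 is lowest, and the groups overlap. The difference of iCM from saline was −1.40 ± 1.01 (limma adjusted p = 0.473), and that of iCM-Ex was 0.25 (interval −2.01 to 2.50). The iCM difference was −0.24 without iCM replicate 3, −2.30 without iCM replicate 1 and −3.71 without the 3 arrays with markers of other tissues. That of iCM-Ex was −0.53 without saline replicate 1.

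Of the type V genes, Col5a1 was at 4.87, 6.85 and 5.78 in saline, 6.14, 3.95 and 4.47 in iCM and 6.45, 5.64 and 4.17 in iCM-Ex. Its iCM mean of 4.85 lay below the negative controls. Col5a2 was at 5.57, 8.41 and 6.94 in saline, 6.59, 6.11 and 4.96 in iCM and 8.68, 6.92 and 5.07 in iCM-Ex. The groups overlap for both, and iCM minus saline was −0.98 (interval −2.59 to 0.63) and −1.09 (−3.11 to 0.93). Without saline replicate 2 these were −0.47 and −0.37, and without the 3 arrays −1.36 and −2.01. Col5a3, a further type V chain, stayed near background with means of 4.16 to 4.59.

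Of the type XI genes, which encode the core of thin fibrils, Col11a1 was at 4.56, 5.55 and 5.17 in saline and at 4.23, 3.75 and 4.05 in iCM. Both group means, 5.10 and 4.01, lay below the negative controls, so the size of the difference, −1.09 ± 0.56 (limma adjusted p = 0.308), is uncertain although the arrays do not overlap. It was the only collagen whose iCM arrays all lay below saline, 1 of 42 against 10.2% of all genes. In iCM-Ex it was at 6.51 in replicate 1 and at 4.29 and 4.17 in the others. Col11a2 was at 6.57, 6.48 and 6.67 in saline, 7.18, 7.35 and 6.91 in iCM and 6.87, 6.60 and 7.49 in iCM-Ex, a difference of 0.57 ± 0.29 for iCM minus saline (limma adjusted p = 0.304). The remaining fibrillar genes, Col2a1, Col24a1 and Col27a1, had iCM minus saline differences of −0.51 to −0.37.

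The spread among replicates was wide in the genes of types I, III and V. Within groups, the pooled standard deviation of Col1a1 was 1.76, larger than that of 99.4% of all genes. It was 1.52 for Col1a2, 1.58 for Col3a1, 1.41 for Col5a2 and 1.10 for Col5a1, each larger than that of at least 96.4% of genes. Over the 23 minor collagens its median was 0.43, close to 0.45 over all genes.

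This spread ran in the same order on the arrays. Replicates have no order of their own, but the arrays that were high for one gene were high for others. In Col1a1 the highest saline array was replicate 2 and the lowest replicate 1, and in iCM and iCM-Ex replicate 1 was highest and replicate 3 lowest. The same order held in all 3 groups for 8 of the other 41 collagens (19.5%), against 0.9% of all other genes. The 8 were Col1a2, Col3a1, Col5a2, Col6a1, Col6a2, Col6a3, Col14a1 and Col18a1. These genes share their arrays, and the order was looked up after the values were seen, so no test was made. Of 41 genes for collagen synthesis, processing and receptors, 1 had this order, the crosslinking enzyme gene Loxl1.

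**Figure D2:**
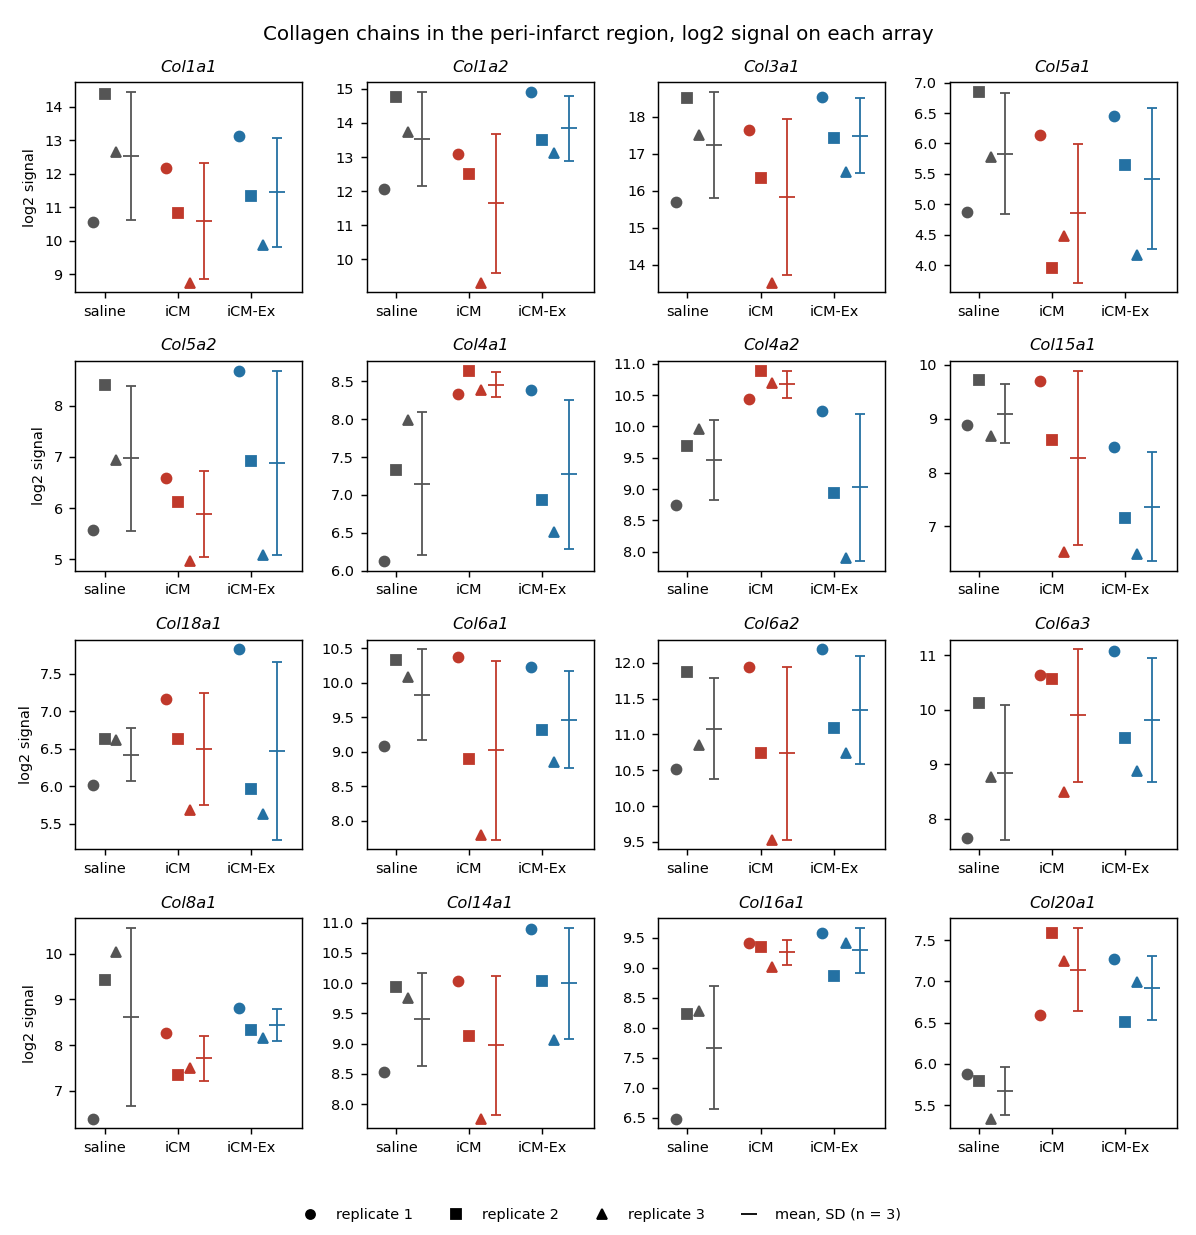
Log2 signals (y axes) of 16 collagen genes on each array, with the replicate shown by its symbol, and the group mean with its standard deviation (n = 3) beside the points. Col1a1, Col1a2 and Col3a1 show the same order of arrays within groups, and the iCM arrays of Col4a1 and Col4a2 lie close together, at 8.33 to 8.64 and 10.44 to 10.88.

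The main type IV chains had higher means in iCM than in saline hearts, unlike the main fibrillar chains. Col4a1 was at 6.12, 7.33 and 7.99 in saline, 8.33, 8.64 and 8.39 in iCM and 8.38, 6.93 and 6.50 in iCM-Ex. Col4a2, whose start region overlaps that of Col4a1 in the sequences above, was at 8.74, 9.68 and 9.96 in saline, 10.44, 10.88 and 10.69 in iCM and 10.25, 8.93 and 7.90 in iCM-Ex. For both genes every iCM array lay above every saline array. The differences were 1.31 ± 0.55 and 1.21 ± 0.54 (limma adjusted p = 0.21 and 0.239), with intervals of 0.09 to 2.52 and 0.01 to 2.41. Neither passed the test. Without the 3 arrays with markers of other tissues they were 1.24 and 1.23 (limma adjusted p = 0.617 and 0.521), and without saline replicate 1 the Col4a1 difference was 0.79.

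In iCM-Ex, Col4a1 and Col4a2 were high in replicate 1 only, and their differences from saline were 0.12 and −0.43 (intervals −1.09 to 1.34 and −1.64 to 0.77), or 0.50 and 0.13 without the 3 arrays. Every iCM-Ex array of Col4a2 lay below every iCM array, the only collagen of which this was true, 1 of 42 against 10.0% of all genes. That difference was −1.65 ± 0.54 (limma adjusted p = 0.181), without iCM-Ex replicate 1 it was −2.26 (0.0392), and without the 3 arrays with markers of other tissues −1.10. Endothelial markers, 5 genes, averaged 11.77 to 12.28 on saline, 11.14 to 12.05 on iCM and 10.62 to 11.75 on iCM-Ex arrays. The mean was lowest in iCM-Ex replicate 1, as were Kdr, Tek and Emcn within that group. Pecam1 was highest of the group there, at 11.24, and Cdh5 was lowest in replicate 3. The part of endothelial cells in the result was not tested.

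The other type IV genes encode chains that are restricted to certain basement membranes, such as those of the kidney filter and lung. Col4a3 had means of 7.41, 7.62 and 7.42 in saline, iCM and iCM-Ex, and Col4a5 of 6.27, 6.02 and 5.99. Col4a6 lay near background at 5.24 to 5.44. Col4a4, at 7.0, 5.95 and 5.87 in saline, did not pass the test but had every iCM-Ex array below every saline array, at 5.14, 5.83 and 5.57 (difference −0.76, limma adjusted p = 0.42). None of these followed Col4a1 and Col4a2 in iCM hearts, with differences of −0.24 to 0.21.

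Col15a1, a collagen that ties basement membranes to the fibres around vessels and muscle, was at 8.88, 9.72 and 8.68 in saline, 9.71, 8.60 and 6.52 in iCM and 8.47, 7.15 and 6.48 in iCM-Ex. Every iCM-Ex array lay below saline. The difference was −1.73 ± 0.75 (limma adjusted p = 0.312), with an interval of −3.40 to −0.05, and −1.28 without the 3 arrays with markers of other tissues. Col4a4 and Col15a1 were 2 of 42 collagens with iCM-Ex arrays all below saline, against 9.53% of all genes. Col18a1, the source of the fragment endostatin, was at 6.01, 6.63 and 6.62 in saline, 7.16, 6.63 and 5.69 in iCM and 7.83, 5.96 and 5.62 in iCM-Ex. Its group means were within 0.07 of each other, while its iCM-Ex arrays spanned 2.21. Without the 3 arrays with markers of other tissues iCM minus saline was −0.74. Over the 8 basement membrane genes the median was −0.04 for iCM and −0.21 for iCM-Ex against saline. The first was above 0 when saline replicate 1, saline replicate 2, iCM replicate 2 or iCM replicate 3 was left out, at most 0.27.

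To set the types against each other within an array, the deviation of each gene from its own mean over the 9 arrays was averaged over chains. Type IV (Col4a1 and Col4a2) minus types I and III (Col1a1, Col1a2 and Col3a1) was 0.21, 1.65 and 4.13 in iCM. It was −0.22, −2.27 and −0.53 in saline and −1.09, −1.04 and −0.84 in iCM-Ex. All iCM arrays lay above the other 6, by 0.42 at the narrowest between iCM replicate 1 and saline replicate 1. A shift common to all genes of an array cancels in this value. The chains were chosen after their values were seen, so it is a description and has no test.

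The 5 genes Col1a1, Col1a2, Col3a1, Col5a1 and Col5a2 had a mean deviation of −0.92, 1.92 and 0.66 in saline, 0.46, −0.71 and −2.46 in iCM and 1.67, 0.30 and −0.92 in iCM-Ex. Activated fibroblast markers, 5 genes, had deviations of −0.03, 1.0 and 0.99 in saline, −0.21, −1.57 and −1.97 in iCM and 1.12, 0.62 and 0.04 in iCM-Ex. Their mean signal was 11.92 to 12.96 on saline, 9.99 to 11.75 on iCM and 11.99 to 13.08 on iCM-Ex arrays, so the iCM means did not overlap the other groups. Of the 5 genes only Ddah1 did so by itself, at 8.63, 7.19 and 6.53 in iCM and 9.74 to 12.14 elsewhere. Postn, Cthrc1, Acta2 and Fap each overlapped between iCM and saline. General fibroblast markers without Dcn, which is at the top of the scale, were at −0.79, 0.37 and 0.23 in saline, 0.38, −1.53 and −1.34 in iCM and 0.46, 1.13 and 1.09 in iCM-Ex. They were low, as the 5 genes were, on saline replicate 1 and iCM replicates 2 and 3, and high on iCM-Ex replicate 3, where the 5 genes were low. The part of fibroblast number in these values was not tested.

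**Figure D3:**
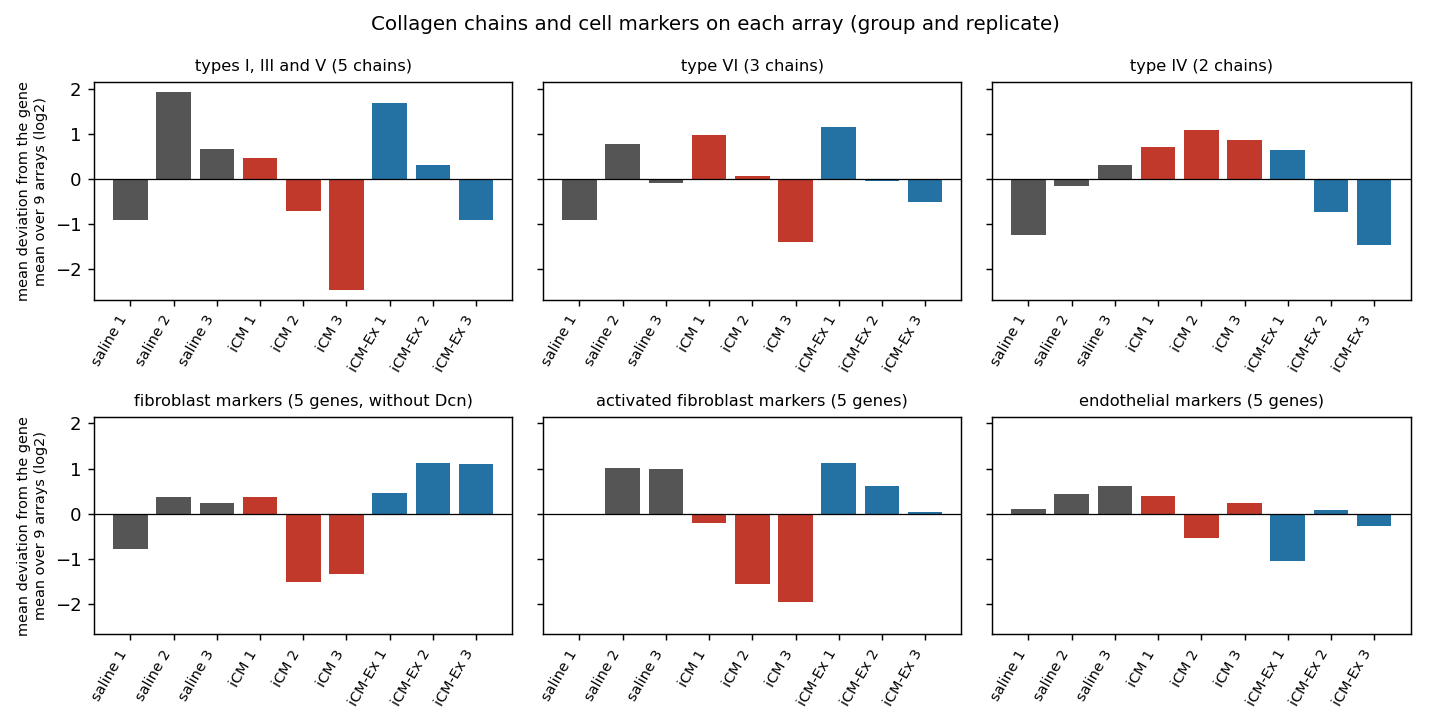
Mean deviation from the gene mean over 9 arrays (y axes, log2) of collagen chains and cell markers, 1 bar for each array. Types I, III and V range from −2.46 in iCM replicate 3 to 1.92 in saline replicate 2, while type IV is above 0 on all 3 iCM arrays, at 0.72, 1.09 and 0.87.

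Minor collagens had higher means in iCM than in saline in 17 of 23 genes (median 0.41) and likewise in iCM-Ex in 17 of 23 (median 0.37). Of all genes 44.5% and 46.5% were lower in these comparisons, against 6 of the 23 in each. Both comparisons use the same saline arrays. Of the 23 minor collagens, 14 were above the negative controls in all 3 groups, 2 in some and 7 in none. Among genes with a mean signal above the median of all genes, 9 of 14 minor collagens were higher in each comparison (medians 0.30 and 0.33). Under quantile normalisation 16 and 15 of the 23 were higher. Without the 3 arrays with markers of other tissues 13 were higher and 10 lower in iCM (median 0.27). Of all 42 collagens, 10 had every iCM array above every saline array, against 13.8% of all genes. They were Col4a1, Col4a2, Col11a2 and the minor collagen genes Col8a2, Col9a1, Col9a2, Col13a1, Col16a1, Col20a1 and Col22a1. Col9a1 and Col22a1 lay below the negative controls in every group. In iCM-Ex 2 of 42 did, Col16a1 and Col20a1, against 12.2% of all genes.

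Col20a1, a fibril-associated collagen, rose in iCM. It was at 5.87, 5.79 and 5.34 in saline, 6.59, 7.59 and 7.24 in iCM and 7.27, 6.50 and 6.99 in iCM-Ex, with means of 5.67 ± 0.29, 7.14 ± 0.51 and 6.92 ± 0.39 (SD, n = 3). Both treated groups lay wholly above saline. The rise was 1.47 ± 0.34 in iCM (SE; limma adjusted p = 0.0435), and the iCM-Ex difference was 1.25 ± 0.34 (0.129). The 2 treatments differed by −0.22 (interval −0.98 to 0.54). The call was lost without any one of saline replicates 1, 2 and 3, iCM replicates 2 and 3 and iCM-Ex replicates 2 and 3, with adjusted p of 0.0615, 0.115, 0.112, 0.138, 0.0908, 0.0577 and 0.0727. It was lost under quantile normalisation and median centring too (0.065 and 0.0562), and the rise was 0.88 (0.401) with the separation of positive from negative control probes as a covariate. That separation was 3.21, 2.47 and 3.15 in iCM, 3.26, 3.48 and 3.56 in saline and 3.63, 4.01 and 3.67 in iCM-Ex. The 3 groups do not overlap in it. In every comparison, a difference that goes with this separation therefore cannot be told apart from one that goes with treatment. Its part in the results was not tested.

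Col16a1, another fibril-associated collagen, was at 6.49, 8.24 and 8.28 in saline, 9.41, 9.34 and 9.01 in iCM and 9.58, 8.86 and 9.42 in iCM-Ex. Again the treated arrays all lay above saline, and saline replicate 1 was far below the other saline arrays. The differences were 1.59 ± 0.46 and 1.62 ± 0.46 (limma adjusted p = 0.0862 and 0.143), and 1.0 and 1.03 without saline replicate 1. Under quantile normalisation the first was 1.72 (0.0365). Col14a1, which binds fibrils and regulates their width, was at 8.52, 9.94 and 9.75 in saline, 10.04, 9.12 and 7.76 in iCM and 10.89, 10.03 and 9.06 in iCM-Ex. Its groups overlap, and its differences from saline were −0.43 and 0.59 (intervals −1.85 to 0.99 and −0.83 to 2.01). The first was 0.18 without iCM replicate 3 and −1.64 without the 3 arrays with markers of other tissues.

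The type IX genes, which encode chains that coat cartilage fibrils, differed in their distance from background. Col9a1, Col9a2 and Col9a3 had means of 4.01, 4.76 and 5.73 in saline and of 4.91, 5.37 and 6.66 in iCM. Col9a1 lay below the negative controls in all groups, Col9a2 above them in 2 groups and Col9a3 in all 3. Of the transmembrane collagens, Col13a1, which lies at sites of cell adhesion, was at 5.25, 5.15 and 6.06 in saline and 7.10, 6.23 and 6.88 in iCM (difference 1.25, limma adjusted p = 0.10). Col17a1, Col23a1 and Col25a1 differed from saline by 0.04, 0.16 and 0.58 in iCM. Col10a1, Col19a1, Col22a1, Col26a1 and Col28a1 differed by −0.02 to 0.71.

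Of the type VI genes that form the common molecule, Col6a1 was at 9.08, 10.32 and 10.08 in saline, 10.38, 8.90 and 7.79 in iCM and 10.23, 9.32 and 8.85 in iCM-Ex. Col6a2 was at 10.51, 11.87 and 10.86, then 11.94, 10.74 and 9.53, and 12.19, 11.09 and 10.74 in the same groups. Col6a3 was at 7.65, 10.11 and 8.78 in saline, 10.63, 10.56 and 8.50 in iCM and 11.07, 9.48 and 8.88 in iCM-Ex. In iCM minus saline they differed by −0.81, −0.34 and 1.05, with intervals of −2.20 to 0.58, −1.72 to 1.03 and −0.68 to 2.78. The chains were measured on the same arrays, so the overlap of these intervals does not compare them. The difference between the chains was not tested. Without the 3 arrays with markers of other tissues all were below 0, at −2.04, −1.55 and −0.35 for Col6a1, Col6a2 and Col6a3. Without iCM replicate 3 they were −0.19, 0.26 and 1.75. The other type VI genes Col6a4, Col6a5 and Col6a6 differed by 0.46, 0.90 and −0.52.

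Type VIII is built of the chains of Col8a1 and Col8a2. Col8a1 was at 6.39, 9.43 and 10.03 in saline, 8.27, 7.35 and 7.50 in iCM and 8.82, 8.34 and 8.16 in iCM-Ex. Saline replicate 1 lay below every other array. The difference for iCM was −0.91 ± 0.77 (limma adjusted p = 0.547) and −2.02 (0.0343) without that array. Col8a2 varied little, with means of 7.51, 7.92 and 7.76 in saline, iCM and iCM-Ex.

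Genes of collagen synthesis, processing and receptors were followed through a list of 47 genes, 41 of them measured. The list covers modification of the chains in the endoplasmic reticulum and their export. It also covers removal of the chain ends (propeptides), crosslinking, fibril assembly, and receptors and uptake, so the counts below are not for 1 step. In iCM hearts 34 of the 41 had lower means than saline (median −0.68), against 44.5% of all genes, and 3 fell and 0 rose, against 3.67% of all genes called. The mean of the activated fibroblast markers, given above, was also lower on every iCM array than on the other arrays. Of the single markers only Ddah1 was, and the part of these markers in the result was not tested. In iCM-Ex hearts 20 were lower and 21 higher than saline, and 0 were past the threshold, with 6 at an unadjusted p under 0.05 by limma, against 15.2% of all genes. In iCM-Ex relative to iCM 30 were higher (median 0.53), and 2 rose and 0 fell, against 1.07% of all genes called. With control separation as a covariate, in which the groups do not overlap, this direction was lost, with 20 higher and 21 lower (median −0.04). In iCM-Ex minus saline 28 were then lower and 13 higher, and in iCM minus saline 27 lower and 14 higher. The arrays of the 2 groups did not overlap for 9 of 41 lower in iCM minus saline (10.2% of all genes) and 16 of 41 higher in iCM-Ex minus iCM (10.2%). Both of these comparisons use the iCM arrays.

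Crtap and Ppib encode the cartilage-associated protein and the prolyl isomerase cyclophilin B, which act in a complex with the enzyme P3h1 on prolines of fibrillar chains. Crtap was at 12.63, 13.68 and 14.08 in saline, 11.60, 9.39 and 9.56 in iCM and 13.73, 13.71 and 14.18 in iCM-Ex. The iCM arrays all lay below the rest. It fell in iCM by 3.28 ± 0.57 relative to saline (limma adjusted p = 0.0173) and rose in iCM-Ex relative to iCM by 3.69 ± 0.57 (0.0275). The first call was lost without saline replicate 2 (0.0781) or iCM replicate 2 (0.0669).

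Ppib was at 11.31, 12.44 and 14.19 in saline, 10.61, 10.27 and 10.29 in iCM and 13.10, 14.09 and 14.12 in iCM-Ex. It too was lowest on the iCM arrays. The difference was −2.26 ± 0.61 for iCM minus saline (limma adjusted p = 0.0703) and 3.38 ± 0.61 for iCM-Ex minus iCM, which passed the test (0.0386). P3h1 lay near background, with differences of −0.11 to 0.01. Over the arrays left out singly, the calls of Crtap and Ppib in iCM-Ex minus iCM were lost without saline replicate 2, iCM replicates 2 or 3 or iCM-Ex replicates 2 or 3, with adjusted p of 0.0621 to 0.16 and 0.0742 to 0.205.

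Mia3 encodes TANGO1, which loads bulky procollagen into transport carriers, and Sec23a encodes a coat protein of those carriers. Mia3 was at 11.20, 11.82 and 11.33 in saline, 10.12, 8.40 and 9.23 in iCM and 10.10, 9.99 and 9.04 in iCM-Ex. Both treated groups lay below saline. It fell in iCM by 2.20 ± 0.45 (limma adjusted p = 0.0302), and the iCM-Ex difference was −1.74 (0.119). Sec23a was at 10.96, 10.73 and 10.29 in saline, 9.47, 9.39 and 9.41 in iCM and 10.65, 10.34 and 10.41 in iCM-Ex. It fell in iCM by 1.24 ± 0.27 (limma adjusted p = 0.0343), and the other groups overlap.

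The calls of Mia3 and Sec23a were lost on leaving out 6 and 7 of the 9 arrays in turn. Adjusted p reached 0.113 for Mia3 and 0.114 for Sec23a without saline replicate 2, and for Sec23a it was 0.0979 under quantile normalisation. P4ha2, a subunit of the enzyme that makes the hydroxyproline of the helix, was at 8.93, 10.06 and 8.86 in saline, 8.69, 9.15 and 8.47 in iCM and 8.21, 8.02 and 7.98 in iCM-Ex. Its iCM-Ex difference from saline was −1.21 ± 0.36 (limma adjusted p = 0.157). Without the 3 arrays with markers of other tissues 0 of the 41 genes were past the threshold in any of the 3 comparisons, in a fit with 1 iCM array.

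**Figure D4:**
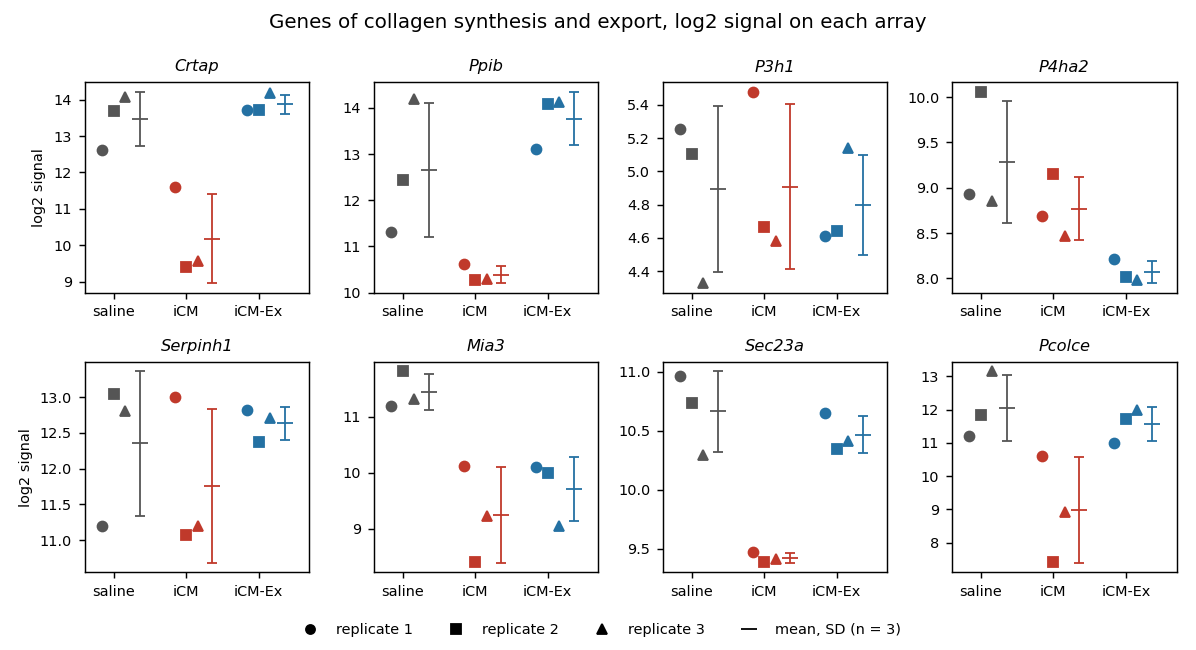
Log2 signals (y axes) of 8 genes of collagen synthesis, export and processing on each array, with group means and standard deviations (n = 3). The iCM arrays of Crtap, at 9.39 to 11.60, and of Ppib, at 10.27 to 10.61, lie below all other arrays, while Serpinh1, the collagen chaperone gene, overlaps among the groups.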

How the data were processed

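RNA of 9 peri-infarct samples was hybridised to Clariom S arrays. The values are log2 signals, 1 per probe set and array, deposited by the authors. Per the submitters' processing notes they used Affymetrix Expression Console. How it corrected background or normalised the arrays, and its version, is not given in the sources used here. Deposited values ran from 2.25 to 19.93, the range of a log2 scale. Of 28846 rows, 6640 were controls and 19572 had 1 gene symbol. The row with the highest mean was kept for the 55 genes with several, which left 19505 genes. All entered 1 limma fit (R 4.3.3, limma 3.58.1) with a mean per group and empirical Bayes moderation, two-sided, without further normalisation or filter, tested on simulated data. Adjusted p are Benjamini-Hochberg values over all genes. No batch is given, arrays carry no read depth, and 3 arrays a group limit precision. The labels call the samples biological replicates. The collagen classes, the pathway and marker lists and the rule for named genes were chosen with earlier results of these data known. Named were the chains of the main heart collagens, collagens past the threshold and, per class and comparison, the largest rise and fall without overlapping arrays, and pathway genes past the threshold or else the 2 with the smallest p. Others are given as group means or differences. Outside this rule, Col4a4 and Col13a1 are given on single arrays and Pcolce is shown in a figure. P3h1, Serpinh1 and Loxl1 were named after their values were seen. Alternatives were other normalisations, a signal filter, other rows, array weights, a replicate block, fits of the 2 groups compared and leaving out arrays. No protein sequences were used here.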

Additional observations from a re-analysis of the deposited data

How the results depend on the processing

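Of 303 recomputed counts and class medians, 264 stayed within 1.5 times the count or within the spread of arrays. Some of the 264 could not move. Class medians are fixed under other rows, the replicate block and fits of 2 groups, and without an array of a group not compared. The iCM minus saline differences of Col1a1, Col1a2, Col3a1, Col5a1 and Col5a2 were below 0 in all 94 values from 19 alternatives. Their sizes went down to −0.0076 for Col5a1 and −0.24 for Col3a1, and 0 of the 94 were past the threshold (lowest limma adjusted p 0.0791). These alternatives share most arrays. Some could not move these differences: other rows, the signal filter, the replicate block, the fit of 2 groups and leaving out an iCM-Ex array. Their values repeat the main fit and add no support for the direction. The count of collagens past the threshold in iCM minus saline, 1, was 0 with median centring, in a fit of only the 2 groups, without the 3 arrays that carry markers of other tissues, with the covariate of control separation, and 0 to 1 on leaving out single arrays. The last 2 settings were chosen after seeing the data. In iCM-Ex minus saline it was 1 with array weights, in iCM-Ex minus iCM 0 to 1 on leaving out arrays, and in the F test 1 under quantile normalisation and with array weights and 0 to 1 on leaving out arrays. Pathway genes past the threshold in iCM minus saline, 3, were 5 with median centring, 7 with array weights, 0 in the fit of 2 groups, without the 3 arrays and with the covariate, and 0 to 3 on leaving out arrays. In iCM-Ex minus iCM, 2 became 4 with array weights, 1 in the fit of 2 groups, 0 without the 3 arrays and with the covariate, and 0 to 5 on leaving out arrays. In iCM-Ex minus saline, 0 became 3 with array weights. The median of minor collagens in iCM-Ex minus iCM, −0.15, was 0.28 with the covariate. The cause of these moves was not tested. Same-numbered arrays of different groups deviated from their group means with correlations of −0.257 to 0.068 across genes. Such values cannot decide whether the numbers pair samples, and the labels do not say. With the replicate block, which spends residual degrees of freedom, collagens past the threshold in iCM minus saline were 0, and pathway genes were 1 in iCM minus saline and 0 in iCM-Ex minus iCM. Signal over background limits the 10 collagens below the negative controls.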

Other observations

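Collagen-like domains also occur in proteins that do not carry a collagen name, and 21 such genes were looked up from a list written after the collagen values were seen. The complement genes C1qa, C1qb and C1qc, whose products begin with a collagen-like stalk and are made by macrophages, had every iCM-Ex array above every iCM array. So did Ccbe1, Colec12, Cthrc1 and Marco of the 21, against 10.2% of all genes. Colq, Emilin3 and Scara5 lay wholly lower, against 10.0% of all genes, and the rest, Msr1 among them, overlapped. Marco and Emilin3 were below the negative controls in every group. C1qa was at 8.69, 9.87 and 12.37 in saline, 10.58, 9.72 and 9.79 in iCM and 11.87, 12.66 and 12.56 in iCM-Ex, a difference of 2.33 between the treated groups (limma adjusted p = 0.171). Cthrc1, a secreted protein of activated fibroblasts, was at 9.08, 11.20 and 10.04 in saline, 9.12, 6.32 and 6.70 in iCM and 10.30, 9.46 and 9.40 in iCM-Ex. Its iCM difference from saline was −2.73 (limma adjusted p = 0.0679). Emid1 was at 6.81, 6.70 and 6.43 in saline, 7.64, 8.40 and 7.67 in iCM and 8.56, 7.33 and 8.15 in iCM-Ex. Both treated groups thus lay above saline, as they did for Emilin2 of the list and for Col16a1 and Col20a1. Of all genes, 13.8% had every iCM array above saline and 12.2% every iCM-Ex array. The share with both was not counted. None of the genes of this list passed the test in any comparison.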
